A study of Drosophila melanogaster with 12 samples.

Results

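The transcripts examined were those whose RNA level was raised by Hey RNAi in the whole gut and also in affinity-purified enteroblasts (EBs) of adult Drosophila melanogaster, all females. The members were chosen by their measured changes: a transcript was included when its mean log2 intensity was at least 1 unit higher (2-fold) in Hey RNAi than in control samples in guts and again in EBs, with all 3 Hey RNAi arrays above all 3 control arrays in each. These limits were met by 175 of the 15473 transcripts on the array (1.13%). The mirrored rule for transcripts lowered in both was met by 89.

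RNA levels were measured on 1-colour arrays in 12 samples, 3 in each of 4 groups. Control guts came from Myo-Gal4 > UAS-GFP females and Hey RNAi guts from Myo-Gal4 > dHey RNAi females, so that the knockdown was driven in enterocytes (ECs) while RNA was taken from all cells of the gut. Control EBs came from dHey-Gal4 > UAS-GFP females and Hey RNAi EBs from dHey-Gal4 > UAS-dHey RNAi females. Flies were raised at 18 °C and shifted to 29 °C for 2 days, at 2 to 4 days of age for guts. Per the methods, the flies for EB purification carried mCD8-GFP on the cell surface under the same driver, in both genotypes. They were collected at 2 to 4 days of age but stayed longer at 18 °C, so they were older at the shift. The driver in ECs was combined with a temperature-sensitive Gal80, while the listed genotype of the dHey-Gal4 line names none. Several Hey RNAi lines are listed in the methods. For the part of the work that holds the arrays they name a VDRC line, termed Heyi, beside a second entry without a line number. The dHey-Gal4 driver is described there as active mainly in EBs and weakly in stem cells. The paper calls the purified cells enriched progenitors, mostly EBs, and reports that not all of them carried the surface label. They are called EBs here. Each group comprised independent crosses. The tissues thus differed in purification, driver, listed Gal80 and age at the shift, which cannot be told apart from cell type here.

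Hey is a HES-related basic helix-loop-helix factor, a family of mostly repressing transcription factors that act downstream of Notch signalling. In the fly midgut, intestinal stem cells give rise to EBs, progenitors that mature into ECs, the large polyploid cells that digest and absorb food. For ECs, the paper proposes that Hey both represses and activates genes. A transcript that rises upon loss of a repressor can rise directly or through other genes, and array levels do not separate these cases. The controls are listed with UAS-GFP and no RNAi construct, and Hey levels were not examined. Whether the rises follow from loss of Hey was therefore not tested.

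The array identifies targets only by FlyBase transcript number. No member could be paired with a gene symbol through the tables used here, so neither the members' functions nor the cell type markers, nor Hey itself, were examined, and the labelled cell types were not checked against markers. The members are described by rank, and 6 of them by identifier.

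Before normalization, the median intensity ranged from 490.5 to 877.6 over the 12 arrays. After quantile normalization, which gives every array the same distribution, the median of all transcripts was 9.46 on the log2 scale on each array. The members lay below that median in control guts, at medians of 8.31, 8.18 and 8.68 on the 3 arrays, and above it in Hey RNAi guts, at 10.01, 10.17 and 10.23. In control EBs the median member was at 8.61, 9.47 and 9.08, and in Hey RNAi EBs at 11.46, 11.71 and 11.58. All 6 Hey RNAi medians were above that of all transcripts, and 5 of the 6 control medians were below it; the rise itself is fixed by the choice of members.

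**Figure D1:**
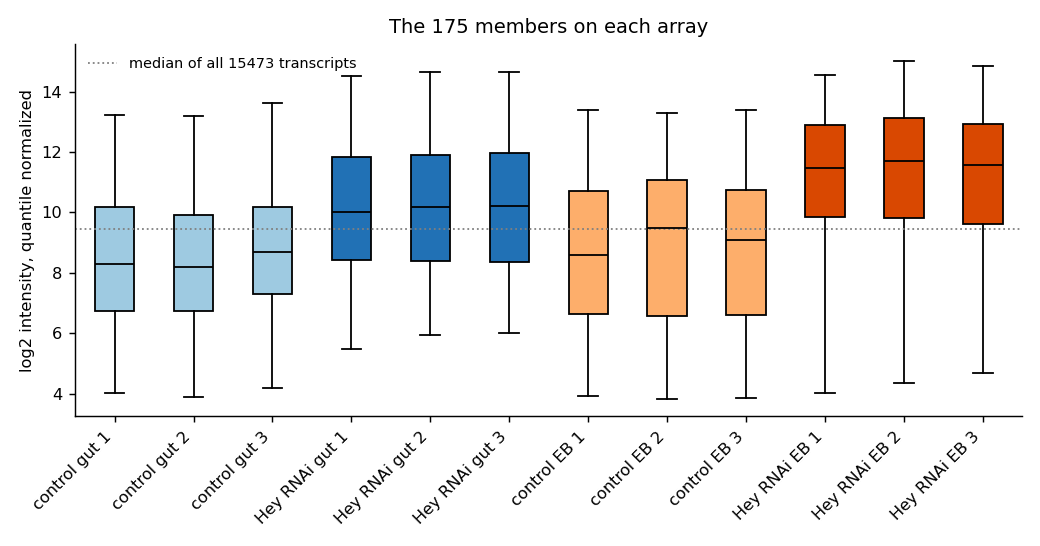
Log2 intensity after quantile normalization (y axis) of the 175 members on each of the 12 arrays (x axis). Boxes span the quartiles with the median as a line, whiskers reach the lowest and highest member, and the dotted line is the median of all 15473 transcripts, 9.46. Control boxes have medians between 8.18 and 9.47 and Hey RNAi boxes between 10.01 and 11.71.

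The median rise of the members was 1.38 log2 units in guts (2.6-fold) and 1.88 in EBs (3.68-fold). These rises chose the members and are given as a description without a test. In guts alone, 564 transcripts (3.65%) met the same limits, and in EBs alone 1178 (7.61%). Because the members are by definition the transcripts found in both lists, nothing is read from these shares. In guts the rises of the members ran from 1.01 to 3.89, with quartiles at 1.16 and 1.92. In EBs they ran from 1.01 to 7.72, with quartiles at 1.39 and 2.71. Large rises were fewer in guts. A rise of at least 2 log2 units was seen for 36 members in guts, for 78 in EBs and for 22 in both. A rise of at least 3 was seen for 9, 35 and 4, respectively.

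The limit at 1 cut through a continuous range. The members just inside had smaller rises of 1.008, 1.011 and 1.013, where the smaller rise is the lower of a transcript's gut and EB values. The transcripts just outside had 0.998, 0.991 and 0.991. By means alone, 243 transcripts rose by at least 1 in both, and 68 of these were left out because a Hey RNAi array overlapped a control array. The distance between the lowest Hey RNAi array and the highest control array had a median of 0.94 log2 units in guts and 1.13 in EBs. It was under 0.25 for 5 members in guts and for 15 in EBs, down to 0.0029 in EBs, so for these members the separation was slight in that tissue.

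The rise was larger in EBs than in guts for 126 members and larger in guts for 49. Both rises were used by the rule, so the counts of this paragraph are a description. More transcripts met its limits in EBs alone (1178) than in guts alone (564). Over all transcripts the median SD was also larger in control and Hey RNAi EBs (0.35 and 0.41) than in guts (0.19 and 0.16). A larger EB rise is therefore not shown to be particular to the members. The median difference, EBs minus guts, was 0.40 log2 units, and it ranged from -2.43 to 5.05. For 50 members the EB rise exceeded the gut rise by at least 1 log2 unit, and for 9 members the reverse held. In guts, the driver acted in ECs while all gut cells were measured. In these bulk samples, fewer cells of a type and less RNA per cell cannot be told apart, nor can more cells and more RNA per cell.

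**Figure D2:**
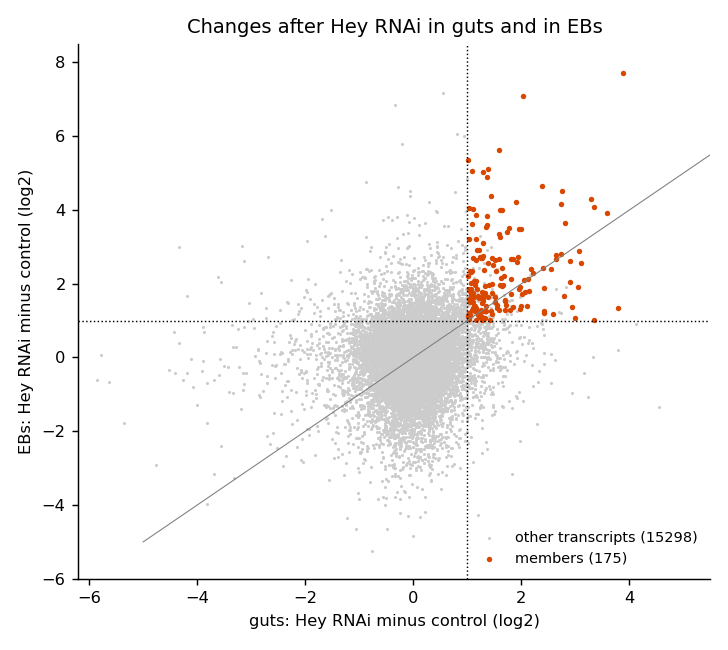
Change after Hey RNAi in guts (x axis) against change in EBs (y axis), both as Hey RNAi minus control in log2 units of group means, for 15298 other transcripts in grey and the 175 members in orange. Dotted lines mark the limit of 1 and the solid line equal change; 126 members lie above the solid line and 49 below it, while grey points past both limits are transcripts left out for overlapping arrays.

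The member with the largest smaller rise was FBtr0089607. Its log2 intensities were 4.95, 5.32 and 5.38 in control guts and 9.12, 8.99 and 9.21 in Hey RNAi guts. In EBs they were 4.29, 4.88 and 4.58 in controls and 11.97, 12.46 and 12.49 after Hey RNAi. Both control groups were dark and tightly grouped, and all Hey RNAi arrays were far above them, more so in EBs than in guts. The rise was 3.89 in guts (14.8-fold) and 7.72 in EBs (212-fold), each the largest among the members. Its level was below that of nearly all transcripts, with 1.56% dimmer in control EBs and 6.62% in control guts, so that both folds start from the lowest part of the range of the array.

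The second was FBtr0084346, which had similar rises in both. Its values were 5.35, 5.14 and 6.11 in control guts and 9.18, 8.80 and 9.36 in Hey RNAi guts. In EBs they were 4.93, 5.56 and 4.45 in controls and 7.48, 9.65 and 9.53 after Hey RNAi. The first Hey RNAi EB array lay about 2 units below the others of its group, but still above every control. The rise was 3.58 in guts (12-fold) and 3.91 in EBs (15-fold). In control EBs, 3.99% of transcripts had a lower level.

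The third by smaller rise started from a bright signal. It was at 10.14, 10.02 and 10.56 in control guts and at 13.41, 13.60 and 13.73 after Hey RNAi. In EBs it was at 9.36, 10.45 and 10.09 in controls and at 13.60, 14.31 and 14.22 after Hey RNAi, rising by 3.34 in guts and 4.08 in EBs. The groups lay far apart in both tissues. The fourth, with rises of 3.29 and 4.29, had control guts at 8.04, 5.72 and 5.80, the first of them well above the others. No other member rose by at least 3 in both.

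Some members rose far more in one tissue than in the other. The member ranked 22 had the second-largest EB rise. It was at 6.36, 5.52 and 5.80 in control EBs and at 13.25, 12.94 and 12.74 in Hey RNAi EBs, a rise of 7.08. In guts it went from 8.48, 7.77 and 9.27 to 10.18, 10.38 and 11.06, a rise of 2.04. The member ranked 171 rose by 5.35 in EBs (40.7-fold) and by 1.02 in guts. Conversely, the member ranked 78 rose by 3.78 in guts, from 8.61, 7.96 and 8.98 to 12.17, 12.55 and 12.17. In EBs it was already at 10.72, 11.23 and 11.45 in controls and rose by 1.35, to 12.13, 12.82 and 12.51. The member ranked 172 shows how little can carry a rise in a dim transcript. In control EBs it was at 3.95, 3.93 and 4.01, and after Hey RNAi at 4.04, 4.37 and 6.54, so that its EB rise of 1.02 rests on the third array.

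**Figure D3:**
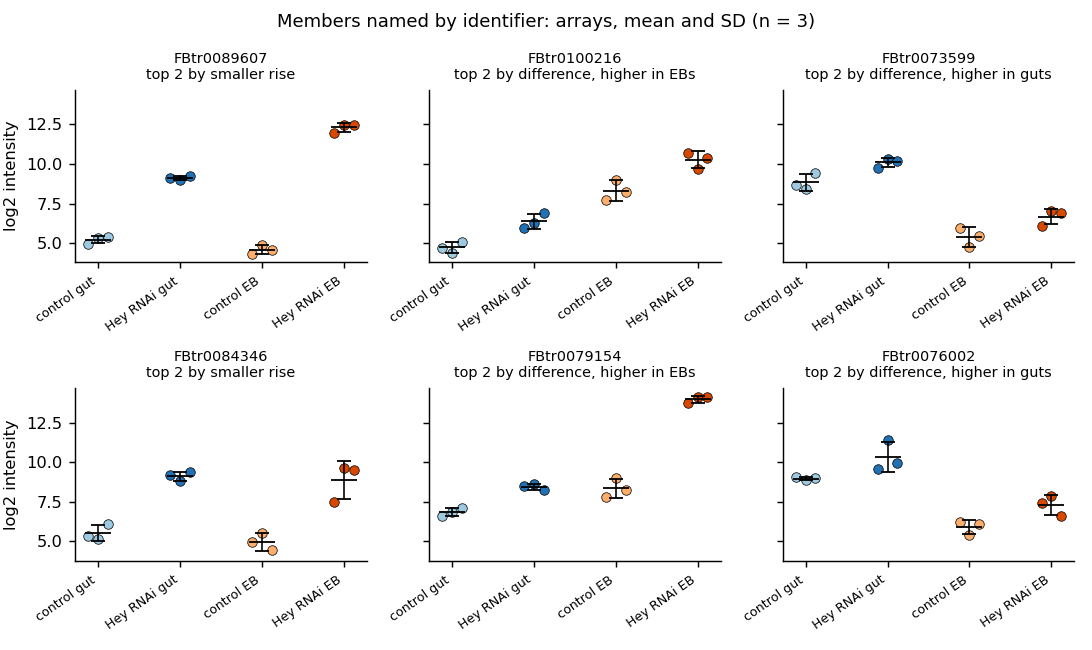
Log2 intensity (y axis) of the 6 members given by identifier, by group (x axis), with each array as a point and the mean and SD of 3 arrays as lines. The left pair has the largest smaller rises, the middle pair is highest in EBs over guts and the right pair highest in guts over EBs; in all 6 every Hey RNAi array lies above every control array of its tissue.

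Low signal touched a minority of the members. The files carry no detection call, so dimness was taken as the lowest 10% of transcripts by group mean. In control guts 21 members were in that range and in control EBs 19, with 28 in either. None was in it in Hey RNAi guts and 2 were in Hey RNAi EBs. The 147 members outside it in both controls had median rises of 1.35 in guts and 1.87 in EBs, close to those of all members. The spread between arrays was also described. The members' median SD was 0.28 in control guts and 0.16 in Hey RNAi guts, against 0.19 and 0.16 over all transcripts. In control EBs it was 0.39 and in Hey RNAi EBs 0.32, against 0.35 and 0.41. The spread of the members was thus above that of all transcripts in both control groups.

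The rule puts Hey RNAi above control in each tissue, which leaves only 6 possible orders of the 4 group means. All 6 occurred, and their counts are given as a description. Most common, in 67 members, was an order from control gut over control EB and Hey RNAi gut to Hey RNAi EB. In 37 members control EBs already exceeded Hey RNAi guts. In 30 members control EBs were lowest and Hey RNAi EBs highest, and in 28 the order was control EB, control gut, Hey RNAi EB, Hey RNAi gut. For 8 members both EB groups lay below both gut groups, and for 5 the order was control gut, control EB, Hey RNAi EB, Hey RNAi gut. By the rule the highest mean was that of a Hey RNAi group, which was EBs for 134 members and guts for 41. The mean of Hey RNAi guts was above that of control EBs for 138 and below it for 37.

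Whether the members differed between EBs and guts was a comparison that the rule did not make. It was tested as the mean of both EB groups minus the mean of both gut groups, a contrast that is orthogonal to both Hey RNAi contrasts in this balanced design. Orthogonality keeps the array noise of the contrasts apart. A larger rise in EBs than in guts still raises the averaged difference, so it is not independent of the sizes of the rises. A transcript was called with a limma adjusted p (Benjamini-Hochberg over all transcripts) under 0.05 and a difference of at least 2-fold. Higher in EBs were 76 members (43.4%), against 14.4% of all transcripts. Lower in EBs were 18 members (10.3%), against 14.8% of all transcripts. Of the 76 members, 56 were also called higher between the controls, and of the 18, 15 were also called lower. With median centring of the arrays in place of quantile normalization, 83 members were higher, against 27.2% of all transcripts, so that the members' share stood less far above the background. The difference was positive for 125 members and negative for 50, with a median of 0.69 log2 units. Over all transcripts the median was 0.22, so a positive difference was the more common sign there too. Of the 81 members not called, 28 had an adjusted p under 0.05 and a smaller difference, and 53 missed the adjusted p. No test of the list against other transcripts was made.

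**Figure D4:**
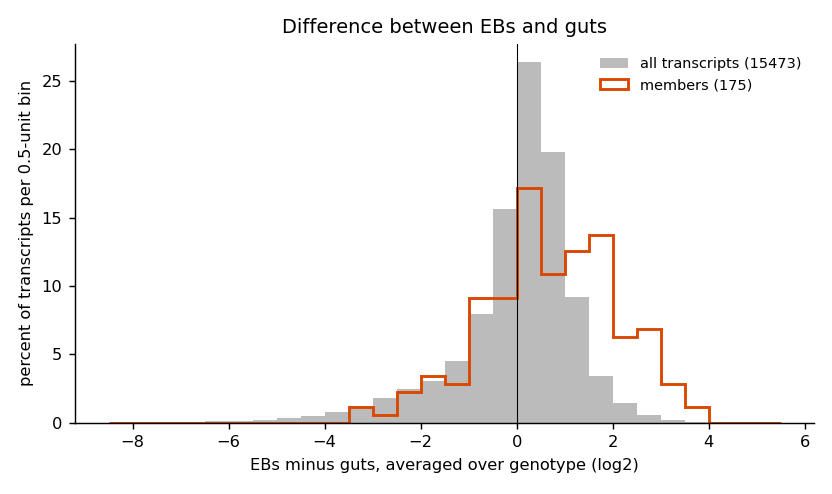
Distribution of the difference between EBs and guts, averaged over genotype, in log2 units (x axis, bins of 0.5) as percent of transcripts (y axis), for all 15473 transcripts in grey and the 175 members in orange. The members' median is 0.69 and that of all transcripts 0.22.

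The same comparison was made for the other lists set by the same limits. Among the 389 transcripts raised in guts and not in EBs, 26.2% were higher in EBs and 28.5% lower, with a median difference of -0.09. Among the 1003 raised in EBs and not in guts, 27.4% were higher and 16.7% lower, with a median of 0.48. Among the 89 lowered in both, 15.7% were higher and 51.7% lower, with a median of -1.01. The members had the highest share of the 4 lists above guts and the lowest below, as a description.

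The 76 members higher in EBs differed by 1.07 to 3.74 log2 units, with a median of 1.80 (3.49-fold). Their median level was 7.75 in control guts, 9.20 in Hey RNAi guts, 9.63 in control EBs and 11.91 in Hey RNAi EBs. The median Hey RNAi gut level of these members was below that of control EBs. Member by member, the control EB mean was above the Hey RNAi gut mean for only 37 of all 175 members, so not for all 76. Their median rise was 1.35 in guts and 2.10 in EBs, and 61 of them rose more in EBs. The largest difference was that of FBtr0100216, which was at 4.68, 4.38 and 5.10 in control guts and at 5.97, 6.25 and 6.92 in Hey RNAi guts. In EBs it was at 7.69, 9.00 and 8.24 in controls and at 10.71, 9.69 and 10.40 after Hey RNAi. All 6 EB arrays lay above all 6 gut arrays. The difference was 3.74 ± 0.27 (SE; limma adjusted p = 1.77e-06), from control guts in which 2.54% of transcripts were dimmer. Its rises were 1.66 in guts and 1.96 in EBs.

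FBtr0079154 came second, with 6.61, 6.87 and 7.09 in control guts and 8.52, 8.61 and 8.22 in Hey RNAi guts. In EBs it was at 7.83, 9.01 and 8.22 in controls and at 13.74, 14.12 and 14.11 after Hey RNAi. Control EBs and Hey RNAi guts overlapped, while Hey RNAi EBs stood far above all other arrays. The averaged difference of 3.52 ± 0.20 (SE; limma adjusted p = 4.02e-07) joined 1.5 between the controls (adjusted p = 0.00163) with 5.54 between the Hey RNAi groups (adjusted p = 9.99e-07). The latter value rests on Hey RNAi EB arrays whose high values also made this transcript a member. FBtr0089607 was also higher in EBs on average, by 1.28 ± 0.15 (SE; limma adjusted p = 4.13e-05). Between its controls the difference was -0.63 (limma adjusted p = 0.0331), lower in EBs but short of the 2-fold limit. Between its Hey RNAi groups it was 3.20 (limma adjusted p = 3.19e-06), on arrays whose high values also made it a member.

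The 18 members higher in guts differed by -3.43 to -1.03 log2 units, EBs minus guts, with a median of -1.85 (3.61-fold). Their median level was 8.90 in control guts, 10.61 in Hey RNAi guts, 6.35 in control EBs and 8.42 in Hey RNAi EBs. The median of Hey RNAi EBs was thus below that of control guts. Member by member this was less common: Hey RNAi EBs were below control guts in mean for only 8 of all 175 members. Their rises had medians of 1.67 and 1.76. The largest difference was that of FBtr0073599, which was at 8.69, 8.39 and 9.43 in control guts and at 9.75, 10.33 and 10.21 in Hey RNAi guts. In EBs it was at 5.98, 4.74 and 5.47 in controls and at 6.11, 7.00 and 6.91 after Hey RNAi. No EB array reached the lowest gut array. The difference was -3.43 ± 0.27 (SE; limma adjusted p = 2.56e-06), beside rises of 1.26 in guts and 1.28 in EBs.

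FBtr0076002 was next, at 9.07, 8.86 and 8.98 in control guts and at 9.61, 11.40 and 9.93 in Hey RNAi guts. In EBs it was at 6.20, 5.38 and 6.13 in controls and at 7.46, 7.84 and 6.58 after Hey RNAi. The second Hey RNAi gut array was well above the others of its group. The difference was -3.04 ± 0.32 (SE; limma adjusted p = 2.08e-05). Among the 81 members called in neither direction, the median difference was 0.09, with rises of 1.33 in guts and 1.74 in EBs. One of these was FBtr0084346, with a difference of -0.39 ± 0.38 (SE; limma adjusted p = 0.401).

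The tissue difference was also taken within each genotype. These contrasts share their arrays with the Hey RNAi contrasts that chose the members, so that a low control or a high Hey RNAi array enters both. Between controls, 59 members (33.7%, against 15.7% of all transcripts) were higher in EBs and 26 (14.9%, against 13.7%) were lower. Between Hey RNAi groups, 87 members (49.7%, against 16% of all transcripts) were higher in EBs and 14 (8%, against 15%) were lower. In both genotypes 52 members (29.7%, against 7.43% of all transcripts) were called higher in EBs and 11 (6.29%, against 8.67%) lower, while 58 (33.1%, against 56.1%) were called in neither. The median difference was 0.44 between controls and 1.01 between Hey RNAi groups, against 0.21 and 0.19 over all transcripts.

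For 6 members (3.43%, against 0.22% of all transcripts) the direction of the tissue difference turned between genotypes. They were called lower in EBs between controls, by -2.61 to -1.08 log2 units (limma adjusted p = 0.000341 to 0.0132), and higher in EBs between Hey RNAi groups, by 1.03 to 2.44 (limma adjusted p = 0.000485 to 0.0295). The reverse was seen for 0 members, against 0.226% of all transcripts. The 6 had EB rises of 3.86 to 7.08 and gut rises of 1.02 to 2.04, and the member ranked 22 was among them. The turn comes from a larger rise in EBs than in guts, which are values the rule used. The shares and adjusted p values of these members are therefore given as a description, and nothing is read from them.

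Arrays fell by their mean deposited intensity into 5 sets whose means agreed within 0.43%. The labels do not name these sets. Within the sets that pair a Hey RNAi array with a control array of its tissue, the members' median rise was 1.42, 1.58 and 1.26 log2 units in guts and 2.19 and 1.90 in EBs. Over all transcripts the medians were 0.04, 0 and 0.03 in guts and 0.10 and -0.02 in EBs. The rule places every Hey RNAi array above every control array of its tissue. Each of these rises was therefore above 0 for every member by choice, and nothing is read from them. Only a pair of sets held both tissues. In one, control EB 3 minus control gut 1 had a median of 0.50 over the members and 0.23 over all transcripts, and it was above 0 for 111 members (63.4%, against 60.6% of all). In the other, Hey RNAi EB 3 minus Hey RNAi gut 2 had a median of 1.05 over the members and 0.15 over all, and it was above 0 for 131 members (74.9%, against 56% of all). These differences come from single arrays and have no test.

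Members may share sequence. In 2 pairs of members the log2 values differed by at most 0.35 on every one of the 12 arrays (largest differences 0.32 and 0.18), with Pearson correlations of 0.982 and 0.995 over arrays, given as a description. The identifiers of each pair were consecutive numbers, as they were in 14 pairs of members in all. Whether such pairs are isoforms or copies that cross-hybridise was not tested, so the count of members can exceed the count of genes.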

How the data were processed

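Amplified RNA of 12 samples was measured with Cy3 on NimbleGen arrays carrying 60-nucleotide probes. The authors extracted the data in NimbleScan and normalized them in ArrayStar, and their notes name RMA. Their deposited matrix gives 1 linear intensity per transcript and array, from 7.78 to 55809; at which step these values were taken is not given in the sources used here. They are multiples of 0.0025 or 0.002 (within 1e-04 of a step) for 5359 and 10111 transcripts, the steps of a mean of 4 or 5 values with 2 decimals. The authors' 2 workbooks hold their own comparisons (log2 group means for guts, folds, p-values, t scores) and were not used.

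Intensities were log2 transformed and quantile normalized over 12 arrays. Tests used limma 3.58.1 in R 4.3.3 with a mean per group (8 residual, 2.6 prior degrees of freedom), after a check on simulated data in which false calls were more frequent than the adjusted p threshold. The precision is limited by 3 arrays per group. The members and lists were chosen with earlier results of these data known. Of the planned rule for named genes, the 2 largest smaller rises and the 2 largest tissue differences in each direction were kept, since 0 members have a symbol; for the same reason the planned gene and marker lists could not be applied. Of all transcripts, 17 matched 1 symbol and 27 several. Other members mentioned by rank were chosen after their values were seen. Alternatives covered normalization, dim transcripts, prior, array weights, arrays fitted, pairing, array sets and each array left out.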

Additional observations from a re-analysis of the deposited data

How the results depend on the processing

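The rule was met by 171 transcripts on the deposited values with no further normalization, by 126 with each array centred on its median and by 188 with normalization within each tissue. Under all 3, 114 members met it. Of these, 55 (48.2%) were higher in EBs and 10 (8.77%) lower, against 14.4% and 14.8% of all transcripts with quantile normalization. With a limit of 1.5 in place of 1 it was met by 58. Leaving out 1 array gave 165 to 221, and 118 members remained whichever array was left out. Quantile normalization can hide a shift common to most transcripts: the median tissue difference of all transcripts was 0.22 with it, 0.41 on deposited values and 0.57 with median centring, and that of the members 0.69, 0.74 and 0.90. Members called higher and lower in EBs were 76 and 17 on deposited values, against 18.9% and 13.8% of all transcripts, and 83 and 16 with centring, against 27.2% and 12.5%.

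The tissue difference of FBtr0084346 turned from -0.39 to 0.13 with centring (limma adjusted p = 0.738). Between controls, members called lower in EBs fell from 26 to 17 with the array sets as a block, an alternative added after seeing the data; the cause was not tested. On deposited values, transcripts called higher in guts after Hey RNAi fell from 259 to 78, and those whose Hey RNAi effects differed from 1753 to 323; the cause was not tested. Leaving out each array in turn gave 74 to 80 members higher and 16 to 20 lower in EBs, 49 to 69 and 20 to 27 between controls, and 83 to 88 and 13 to 20 between Hey RNAi groups. The named members ranged from 1.18 to 1.38 (FBtr0089607), -0.58 to -0.03 (FBtr0084346), 3.57 to 3.99 (FBtr0100216), 3.33 to 3.67 (FBtr0079154), -3.67 to -3.25 (FBtr0073599) and -3.20 to -2.73 (FBtr0076002). With the replicate number as a block, 76 and 18 members were called; the labels do not say that a number pairs arrays, the deviations of same-numbered arrays correlated at r = -0.11 to 0.15 across tissues, 0.0048 to 0.26 between control and Hey RNAi guts and 0.13 to 0.32 between control and Hey RNAi EBs, where every pair was over 0.1, and the block changed no call of a named member. Without the dimmest 1 in 3 transcripts, FBtr0084346 and FBtr0100216 were not fitted. All other alternatives run kept the counts within 1.5 times and the calls of the named members. The files give no signal over background.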
